A study of Mus musculus with 221 samples.

Results

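Imprinted genes are transcribed mainly from the copy inherited from 1 parent, and many of them set the growth of the embryo and its placenta. The 10 genes described here are H19, Igf2, Igf2r, Cdkn1c, Grb10, Dlk1, Meg3, Peg3, Mest and Gnas, chosen by gene symbol as known imprinted growth genes, with earlier results of these data known. They were 10 of 78001 gene symbols and held 185 of 278369 transcripts in the table of estimated counts. Their levels, their share of cells with a count and their isoforms were measured in hemogenic endothelium (HE), the endothelium that gives rise to blood, and in the first blood progenitors of the mouse embryo.

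As background, paternally expressed genes of this group, such as Igf2, Dlk1, Peg3 and Mest, are best known for promoting growth, while maternally expressed ones, such as H19, Igf2r, Cdkn1c and Grb10, are best known for restraining it. H19 and Igf2 lie side by side and share enhancers, and an insulator bound by CTCF on the maternal copy decides which of the pair is transcribed. Dlk1 and Meg3 form a second pair of a protein-coding gene and a long noncoding RNA (lncRNA). H19 and this locus have been studied in blood stem cells for their part in keeping the cells quiescent. The reads carried no allele labels, so the parental origin of a transcript was not measured.

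Each sample was 1 sorted cell whose full-length cDNA, made by the Smart-seq2 protocol, was sequenced as long nanopore reads. The cells came from embryos of mice carrying the Gfi1-GFP reporter, the Runx1b-RFP reporter or both, a C57BL/6JOlaHsd reporter background bred with CD-1 females. The clusters had been defined by the study on short reads of the same cells. From the aorta-gonad-mesonephros region (AGM), where the dorsal aorta lies, came HE-AGM early and HE-AGM late, sorted as RUNX1+ KIT- CDH5+ cells without CD41 and CD45 at E9.5 and E10.5. Cluster c5 of the AGM holds cells that the study places in the blood clusters inside the aorta. From the yolk sac (YS) came HE-YSA early and late and HE-YSP early and late, sorted as RUNX1+ KIT+ CD31+ cells without CD41 and CD45 at E9, E9.5 and E10.5. The study describes the YS progenitor clusters p1 and p2 as skewed toward lympho-myeloid and erythro-myeloid fates. Of the cells used below, p1 had 2 of E9.5 and 15 of E10.5, and p2 had 5 of E9, 9 of E9.5 and 6 of E10.5. HE-YSA late had 1, 7 and 21 cells of E9, E9.5 and E10.5, and HE-YSP late had 6, 11 and 7. No stage is given for c5 cells, and stage was not matched between progenitors and late HE. Both sorts took cells with and without GFI1. The study took YS HE cells from mice with 1 or both reporters, and reporter genotype was not compared between the clusters. No treatment differed between the clusters, no embryo is named for a cell, and cells of a cluster may share an embryo.

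Cells below a library size of 17595 counts were left out, which kept 208 of 221 cells. HE-AGM kept 29 early and 20 late cells, cluster c5 21, HE-YSA 23 early and 29 late cells, HE-YSP 25 early and 24 late cells, p1 17 and p2 20. Because no embryo is named, each cluster counts as 1 sample, no difference has a replicate check, and no test was possible. Levels are CPM, a gene's counts summed over the cells of a cluster and scaled to a common library total, with exact 95% Poisson intervals that cover counting error only, and the 3 nanopore runs, each with cells of every cluster, are given as a technical check. The median cell total was 59311 counts for HE-AGM, against 34484 for HE-YSA and 33297 for HE-YSP, so depth differed between the tissues. AGM and YS cells also came from different cDNA projects, apart from 6 cells of HE-AGM early and 1 of HE-YSA early that came from others. Most of these 6 cells shared a project with that 1 HE-YSA early cell. This is too few YS cells to tell tissue and cDNA project apart. In addition, 2 cells labelled YS, in HE-YSA early and HE-YSA late, have AGM in their library names, and leaving out all such cells kept each call reported below.

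The labels were checked against marker genes. The summed level of 8 endothelial markers ran from 743 CPM in p2 to 3006 CPM in HE-AGM early, and that of 8 blood markers from 155 CPM in HE-YSP early to 1162 CPM in c5. Ptprc, the gene of CD45, was below 1 count in HE-YSA and HE-YSP. It had at least 1 count in HE-AGM early and in HE-AGM late, which were also sorted without CD45. Markers of other cells were low: 11 mesenchymal markers summed to at most 23.8 CPM in a cluster, with Col1a1 below 1 count in each, 10 yolk sac endoderm markers to at most 25.9 CPM with Ttr, Apob and Hnf4a below 1 count in each, 6 megakaryocyte markers to at most 105 CPM and 7 macrophage markers to at most 119 CPM, the last 2 both in HE-YSP early. Of 8 erythroid markers the sum was 2.65 to 358 CPM, and 1 cell of HE-AGM early reached 11877 CPM.

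The sequences that carry the isoform results below are shown first. Positions are on GRCm38 from GENCODE M21, an older release than the one behind the counts. Transcripts were matched to it by identifier and length, and 97% of Gnas counts and 100% of Dlk1 counts lie on matched transcripts, but only 1.605% of H19 counts and 9.22% of Meg3 counts do. Gnas exon 3 is a coding exon of 45 bases, or 15 whole codons, at chr2:174336747-174336791 on the plus strand, so leaving it out shortens the G protein subunit without a change of frame. In the first line the capitals mark exon 3 between 20 bases of the exons on each side, and in the second line those exons are joined directly.
Gnas exon 3 included: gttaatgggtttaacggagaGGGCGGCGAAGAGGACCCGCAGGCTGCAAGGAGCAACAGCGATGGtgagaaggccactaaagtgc
Gnas exon 3 left out: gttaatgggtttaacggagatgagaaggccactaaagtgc

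The last coding exon of Dlk1 starts at chr12:109459607 on the plus strand and can be spliced inside, which removes coding sequence near the transmembrane segment. As background, the longer DLK1 forms hold the site where the extracellular part is cut off and released, and the shorter forms stay on the membrane. The splice leaves the exon after base 226 in Dlk1-204 and after base 286 in Dlk1-203, and the capitals mark the 25 bases after the junction, all coding.
Dlk1-204: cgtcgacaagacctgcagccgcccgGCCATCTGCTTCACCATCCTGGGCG
Dlk1-203: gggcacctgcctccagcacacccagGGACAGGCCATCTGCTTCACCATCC

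H19 is the host of the microRNA miR-675, whose hairpin of 84 bases lies at chr7:142577064-142577147 on the minus strand, inside exon 1 of H19-204 in that annotation, where this transcript has another length than the one counted. The mature sequences from RefSeq are given with the seed, bases 2 to 8, in capitals, because H19 is the host gene and the 3 HE populations had separate levels of it in every run. The mature microRNA itself was not measured.
mmu-miR-675-5p: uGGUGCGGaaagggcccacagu
mmu-miR-675-3p: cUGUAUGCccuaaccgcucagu

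HE of the AGM held more H19, Igf2r, Cdkn1c and Gnas than HE of either YS population. Igf2 was at the same level in HE-AGM and HE-YSA when all stages were summed. Mest went the other way and was highest in HE-YSP. In these comparisons a gene was called when its level differed at least 2-fold and at least 20 counts were summed over both groups. In HE-AGM against HE-YSA, 4 of 10 members were higher and 2 lower, near the 31.8% and 13.3% of 11956 genes tested. In this comparison 78.2%, 89.1%, 89.2% and 74.0% of all genes tested had a lower log2 ratio than H19, Igf2r, Cdkn1c and Gnas. In HE-AGM against HE-YSP, 6 of 9 members with enough counts were higher and 1 lower, beside 34.1% and 14.5% of all genes tested. The median log2 ratio of the members was 0.45 and 2.16, and that of all genes tested was 0.31 and 0.37, in the same order. Both comparisons share the HE-AGM cells. HE-YSP and HE-YSA share tissue and, but for 1 cell of HE-YSA early, cDNA project. In HE-YSP against HE-YSA 1 of 10 members was higher and 4 were lower, beside 9.47% and 11.5% of all genes. In run 1 alone 3 instead of 5 were past 2-fold. Their stages differ: at E9 HE-YSP had 10 early and 6 late cells, and HE-YSA had 1 of each. At E10.5 HE-YSP had 13 early and 7 late cells, and HE-YSA had 14 and 21. Stage was not matched in this comparison.

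**Figure D1:**
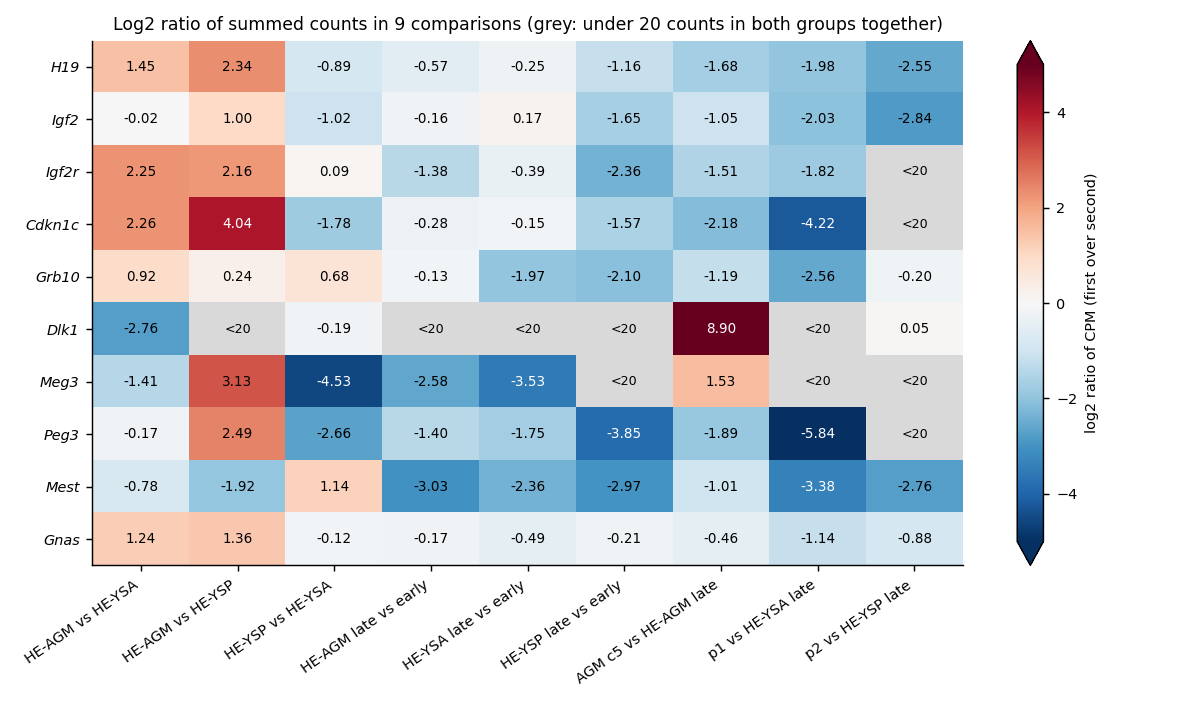
Log2 ratio of summed CPM for each of the 10 genes (rows) in 9 comparisons (columns, first group over second), with red for higher and blue for lower in the first group and grey where both groups together held under 20 counts. Cdkn1c reaches 4.04 in HE-AGM against HE-YSP, and in the comparison of p1 with HE-YSA late each of the 8 genes with enough counts is past 2-fold lower.

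H19 (chr7:142575529-142578143, minus strand) was at 5179.7 CPM in HE-AGM (interval 5103 to 5258). HE-YSA held 1897 CPM (1835 to 1959.5), and HE-YSP held 1021 CPM (973 to 1071). Each of 49 HE-AGM cells and 52 HE-YSA cells had a count of it, and 47 of 49 HE-YSP cells did. The lowest, median and highest HE-AGM cells held 1313, 4812 and 11029.7 CPM. The same values were 423, 1777 and 5322 CPM for HE-YSA, and 0, 790.3 and 4715 CPM for HE-YSP. Single cells of the populations thus overlapped, and the HE-AGM median lay above the other medians. The log2 ratio of HE-AGM to HE-YSA was 1.45 (1.38, 1.30 and 1.66 in runs 1, 2 and 3), a 2.73-fold difference. Against HE-YSP it was 2.34 (2.18, 2.07 and 2.80), a 5.07-fold difference. By cluster, H19 was highest in HE-AGM early at 5995 CPM, followed by HE-AGM late at 4043 CPM and HE-YSA early at 2083 CPM, and the ranges over runs of these neighbours did not overlap. HE-YSA early, HE-YSA late (1749 CPM), HE-YSP early (1402 CPM) and c5 (1257 CPM) came next, each neighbour overlapping the following one in its runs. HE-YSP late held 626 CPM, p1 442 CPM and p2 106 CPM.

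Igf2 (chr7:142650766-142666816, minus strand), the fetal growth factor, was at 11626 CPM in HE-AGM (interval 11510.5 to 11742) and at 11760.5 CPM in HE-YSA (11607 to 11915). HE-YSP held less, at 5816 CPM (5701 to 5933). It took 1.16% and 1.18% of all counts in HE-AGM and HE-YSA. HE-AGM and HE-YSA differed by a log2 ratio of -0.02, with the sign changing between runs (-0.03, -0.08 and 0.10). The HE-YSA level sums unlike stages. HE-YSA early and late held 6221 and 2404 CPM at E9.5, and 14031 and 15088 CPM at E10.5. A stage is given for only 1 HE-AGM cell, so the 2 populations could not be compared at 1 stage. The spread among cells was not the same: HE-AGM cells ran from 4788 to 22660.2 CPM with a median of 11822, HE-YSA cells from 1009 to 32334 CPM with a median of 10321, and HE-YSP cells from 455 to 30547 CPM with a median of 3599.8. HE-AGM was higher than HE-YSP by a log2 ratio of 1.00, just within 2-fold at 1.999-fold (0.78, 1.22 and 1.16 by run). HE-YSP stood to HE-YSA at a log2 ratio of -1.02, past 2-fold in runs 2 and 3 but not in run 1 (-0.81, -1.30 and -1.06). That ratio sums unlike stages, and at E10.5 alone HE-YSP early held 10274 CPM and HE-YSP late 4230 CPM. In order, HE-YSA late held 12379 CPM, HE-AGM early 12167, HE-YSA early 10976, HE-AGM late 10871 and HE-YSP early 8738, all overlapping their neighbours over runs. Cluster c5 followed at 5257 CPM, p1 at 3021, HE-YSP late at 2787 and p2 at 387 CPM.

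**Figure D2:**
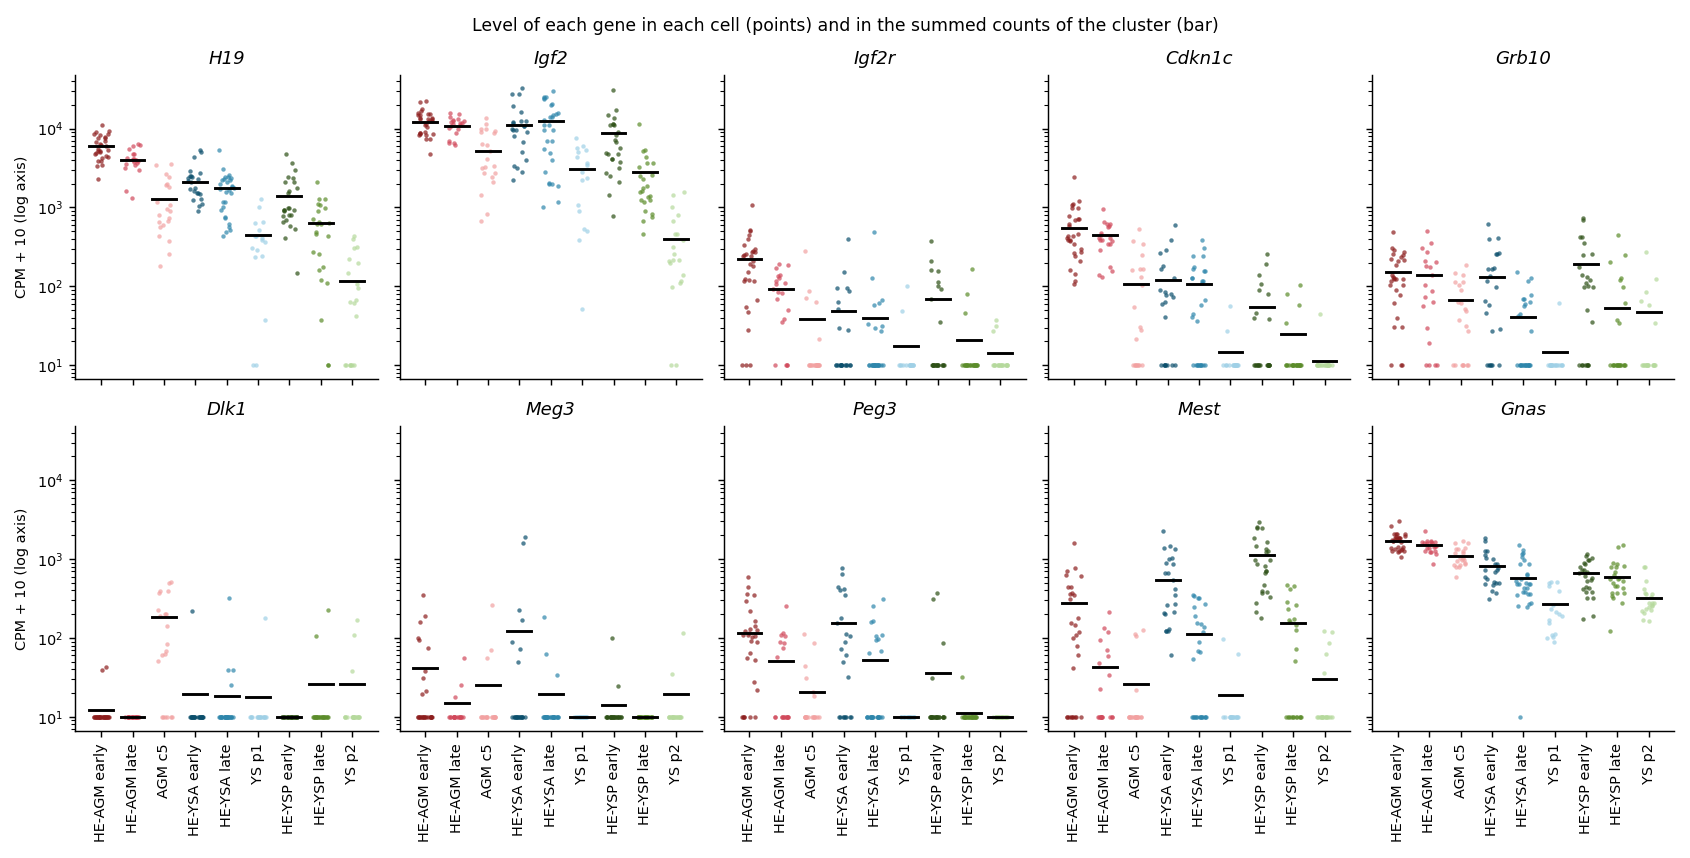
CPM of each of the 10 genes in each cell (points, log axis, 10 CPM added) for the 9 clusters, with a bar at the level of the summed counts. H19 and Gnas points of both HE-AGM clusters sit above most YS points, Mest is high in the 3 early HE clusters, and Dlk1 is off the floor mainly in cluster c5, where 15 of 21 cells have a count.

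The balance between the neighbours H19 and Igf2 was not the same in the AGM and YS populations when all stages are summed. HE-AGM held 0.446 H19 counts per Igf2 count (0.412, 0.449 and 0.473 in the 3 runs), HE-YSA 0.161 (0.155, 0.172 and 0.161) and HE-YSP 0.176 (0.156, 0.250 and 0.152). The lowest run of HE-AGM lay above the highest run of both YS populations. Within stages the YS sets of at least 5 cells ran from 0.0876 in p2 at E10.5 to 0.566 in HE-YSA late at E9.5, so some of them (also p2 at E9, 0.489) lay above HE-AGM as a whole. HE-AGM early (0.493) and late (0.372) were both above c5 (0.239). Across cells, Pearson's r of log2(CPM + 10) between H19 and Igf2 was 0.16 in HE-AGM (49 cells), 0.25 in HE-YSA (52 cells) and 0.61 in HE-YSP (49 cells). It was 0.67 in c5 (21 cells). These values describe cells that share cluster, run and depth, and H19 and Igf2 in 1 cell share its total.

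**Figure D3:**
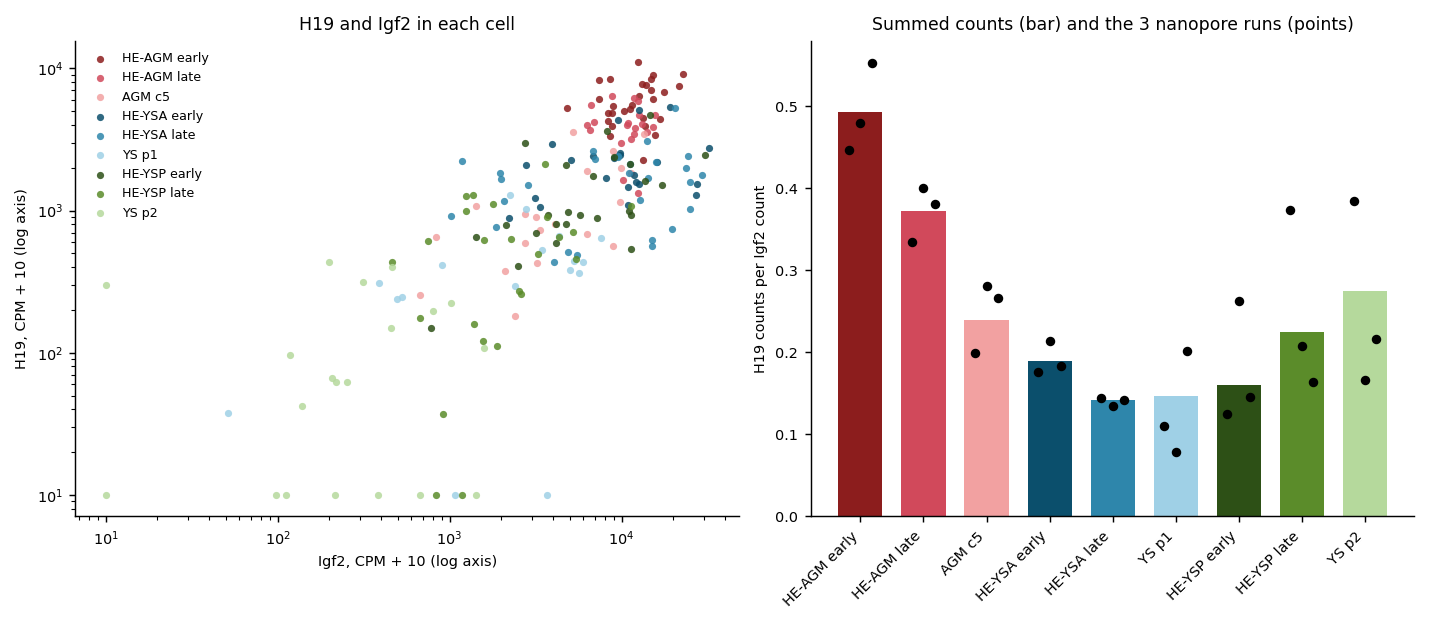
Left, H19 against Igf2 in each cell of the HE populations and progenitors (CPM + 10, log axes). Right, H19 counts per Igf2 count in the summed counts of each cluster (bars from 0) and in each nanopore run (points); HE-AGM early at 0.493 and HE-AGM late at 0.372 are the highest bars.

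Igf2r (chr17:12682406-12769664, minus strand) encodes the receptor that takes up IGF2 and delivers it to lysosomes. It was at 159 CPM in HE-AGM (interval 145 to 173). Both YS populations were lower, HE-YSA at 33.1 CPM (25.4 to 42.3) and HE-YSP at 35.3 CPM (26.9 to 45.5). A count was found in 40 of 49 HE-AGM cells (81.6%), while 13 of 52 HE-YSA cells (25%) and 12 of 49 HE-YSP cells (24.5%) had one. With each cell thinned to 17000 counts these shares were 69.4%, 23.1% and 18.4%. HE-AGM was higher by a log2 ratio of 2.25 against HE-YSA (1.68, 2.94 and 2.29 by run) and 2.16 against HE-YSP (2.44, 1.61 and 2.35). Within the AGM, HE-AGM early held 214 CPM, HE-AGM late 82.0 CPM and c5 28.5 CPM, where 1 cell held 74.4% of the counts. The other neighbours in order, from HE-AGM late down to p2 at 4.10 CPM, had overlapping counting intervals. The kit and counting are not stated to keep strand, so Airn, the antisense RNA over Igf2r, cannot be told apart from it where they overlap. Transcripts named Airn were at 33.5, 58.7 and 27.6 CPM in HE-AGM, HE-YSA and HE-YSP. These values rest on the same counting, and the part of Airn in the Igf2r counts was not tested.

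Grb10 (chr11:11930508-12038683, minus strand), an adaptor that dampens signalling by the insulin and IGF1 receptors, was within 2-fold among the HE populations in the summed counts. HE-AGM was at 136 CPM (124 to 149), HE-YSP at 115 CPM (99.2 to 132) and HE-YSA at 71.4 CPM (59.9 to 84.4). HE-AGM stood to HE-YSA at a log2 ratio of 0.92, and past 2-fold in runs 2 and 3 (0.47, 1.30 and 1.23 by run). Early and late clusters of the YS differed more. HE-YSP early at 184 CPM, HE-AGM early at 141, HE-AGM late at 129 and HE-YSA early at 123 each overlapped the next in their intervals, with HE-YSP early above HE-AGM late and HE-YSA early, and all lay above c5 at 56.3, HE-YSP late at 42.6, p2 at 36.9 and HE-YSA late at 31.0 CPM. In p1 only 1 of 17 cells had a count, at 3 counts.

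Cdkn1c (chr7:143458339-143461050, minus strand), the cyclin-dependent kinase inhibitor p57, had one of the widest differences of the group between HE populations. Its level was 496 CPM in HE-AGM (472 to 520.1). HE-YSA was at 103 CPM (89.5 to 119) and HE-YSP at 29.9 CPM (22.2 to 39.4). All 49 HE-AGM cells had a count, with a lowest cell of 97.7 CPM, a median of 397 and a highest of 2396 CPM. In HE-YSA 31 of 52 cells had a count (59.6%, exact binomial interval 45.1 to 73.0%), and in HE-YSP 13 of 49 (26.5%, 14.9 to 41.1%). Thinned to 17000 counts, 100%, 53.8% and 26.5% of cells had one. The log2 ratio to HE-YSA was 2.258 (1.51, 3.35 and 2.56 by run) and that to HE-YSP was 4.04 (3.43, 4.63 and 4.24). HE-YSP stood to HE-YSA at a log2 ratio of -1.78, below 0 in each run. Cluster c5 held 96.7 CPM, p1 3 counts and p2 1 count.

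Dlk1 (chr12:109452823-109463336, plus strand), a transmembrane protein related to Notch ligands, was sparse in HE and frequent in c5. HE-AGM had 4 counts of it, HE-YSA 17 and HE-YSP 13, against 259 counts or 172 CPM (151 to 194) in c5. In c5 15 of 21 cells had a count, the median cell was at 72.8 CPM and the highest at 499 CPM, and the runs gave 161, 79.9 and 233 CPM. HE-AGM late had 0 counts in 20 cells, which allows up to 2.16 CPM (3 counts), so c5 was at least 79.5-fold higher. The next cluster in order, p2, held 16.4 CPM in 12 counts, and its runs lay below those of c5.

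Meg3 (chr12:109541001-109571726, plus strand), the lncRNA of the same locus, was sparse. HE-AGM held 69 counts in 10 of 49 cells, HE-YSA 105 counts in 7 of 52 cells with 42.4% of them in 1 cell, and HE-YSP 3.5 counts. HE-AGM stood to HE-YSA at a log2 ratio of -1.41 in the sum, but the direction turned in run 3 (-2.26, -2.04 and 5.05), where HE-YSA had none, and was 0.23 with a limit of 30000 counts per cell. In c5, where Dlk1 was high, Meg3 had 23 counts in 3 of 21 cells, each of which also held Dlk1, while 12 cells held Dlk1 alone.

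Peg3 (chr7:6703892-6730431, minus strand), a zinc finger protein, was at 88.7 CPM in HE-YSA (75.8 to 103), 79.0 CPM in HE-AGM (69.7 to 89.1) and 13.8 CPM in HE-YSP (8.72 to 20.6). HE-AGM was higher than HE-YSP by a log2 ratio of 2.49 (6.19, 1.59 and 3.91 by run). HE-AGM and HE-YSA differed by -0.17, with opposite signs among runs (-1.39, 0.89 and 1.28). A count was found in 30 of 49 HE-AGM cells, in 24 of 52 from HE-YSA and in 5 of 49 from HE-YSP. Neither p1 nor p2 had a count, and a floor of 3 counts there stands at 4.57 and 4.10 CPM.

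Mest (chr6:30723547-30748465, plus strand), a protein of the hydrolase fold family, had the reverse order: HE-YSP at 641 CPM (603 to 681), HE-YSA at 290.2 CPM (267 to 315) and HE-AGM at 169 CPM (155 to 183). HE-AGM stood to HE-YSP at a log2 ratio of -1.92 (-1.77, -2.25 and -1.81 by run). HE-YSP was above HE-YSA by 1.14 (0.84, 1.11 and 1.40). HE-YSP early led at 1122 CPM, with a count in all 25 cells (171 to 2908 CPM, median 844). HE-YSA early followed at 528 CPM, HE-AGM early at 267 and HE-YSP late at 143 CPM, and these neighbours did not overlap over runs. In HE-AGM early 1 cell held 31.9% of the Mest counts, and the 6 cells from other cDNA projects were at 623 CPM against 176 CPM in the other 23.

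Gnas (chr2:174284320-174346744, plus strand), which encodes the stimulatory G protein subunit that activates adenylyl cyclase, was found in nearly every cell. HE-AGM held 1596 CPM (1554 to 1639.9). The YS populations held less, 674 CPM in HE-YSA (638 to 712) against 619.7 CPM for HE-YSP (582 to 659). HE-AGM cells ran from 847 to 3043 CPM with a median of 1608. Medians were 535 CPM in HE-YSA, with cells between 0 and 1859, and 549 CPM in HE-YSP, with cells between 112 and 1481, so the lowest HE-AGM cell lay above both YS medians. The log2 ratio of HE-AGM was 1.24 to HE-YSA (0.96, 1.32 and 1.503 by run) and 1.36 to HE-YSP (1.35, 1.25 and 1.47). HE-AGM early, HE-AGM late and c5 held 1673, 1490.1 and 1082 CPM, above HE-YSA early at 804 CPM in every run. The progenitors p2 and p1 were lowest, at 311 and 259 CPM.

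Depth and cDNA project differed between the tissues, so values were also taken within them. In HE cells with totals of 30000 to 60000, which left 26 HE-AGM, 29 HE-YSA and 26 HE-YSP cells, the log2 ratio of HE-AGM to HE-YSA was 1.54 for H19, -0.03 for Igf2, 2.49 for Igf2r, 2.11 for Cdkn1c, 1.26 for Gnas, -0.41 for Mest and -2.80 for Dlk1. Other members moved: Grb10 was past 2-fold at 1.31, Meg3 turned from -1.41 to 0.40 and Peg3 from -0.17 to 0.76. Against HE-YSP, Igf2 was past 2-fold at 1.16. Among HE-AGM early cells, the 23 of the main AGM cDNA project held 6025 CPM of H19 and the 6 of other projects 5875 CPM, and Cdkn1c was at 523 and 583 CPM. In the same order Grb10 was at 142 and 137 CPM, Peg3 at 106 and 109, Gnas at 1702 and 1557 and Igf2r at 203 and 254. Igf2 was at 12762 and 9826 CPM, Mest at 176 and 623, Meg3 at 38.8 and 5.09 and Dlk1 at 2.59 and 0. Scaling by DESeq2 size factors raised the median log2 ratio of all genes by 0.23 in HE-AGM against HE-YSA and by 0.25 against HE-YSP. It raised the share of higher genes among those called from 70.5% to 80.2% and from 70.1% to 78.6%.

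From early to late HE the members that differed were lower in each population. In HE-AGM late against early 0 of 9 members were higher and 4 lower, beside 9.11% and 17.2% of all genes. In HE-YSA late against early 0 of 9 were higher and 4 lower, beside 11.1% and 11.7%, and 2 were past 2-fold in run 3 alone. In HE-YSP late against early 0 of 8 were higher and 7 lower, beside 13.4% and 12.6%. That number was 3 in run 3 alone and 4 with cells of E10.5 only. Mest was lower in all 3, with a log2 ratio of -3.03 for HE-AGM (-3.25, -2.05 and -3.60 by run), -2.36 for HE-YSA (-2.26, -3.39 and -1.74) and -2.97 for HE-YSP (-3.15, -3.91 and -2.45). The 6 AGM cells of other cDNA projects, at 623 CPM of Mest, were all in HE-AGM early. The other 23 cells there held 176 CPM, against 32.4 CPM in HE-AGM late. Endothelial markers were lower in late than in early HE too, at 1620.3 against 3006 CPM in HE-AGM, 1452 against 2316 in HE-YSA and 1562 against 2431 in HE-YSP, and their part in these differences was not tested.

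The other members varied by population, given here as log2 ratios of late to early. Igf2r was lower in HE-AGM late (-1.38, with -1.37, -1.64 and -1.28 by run) and in HE-YSP late (-2.36, on 9 counts against 50). Grb10 was lower in HE-YSA late (-1.97, with -1.68, -4.36 and -1.73 by run) and in HE-YSP late (-2.10, with -1.12, -2.08 and -3.39), but it stood at -0.13 in HE-AGM late. Peg3 was lower in each population, HE-AGM at -1.40, HE-YSA at -1.75 and HE-YSP at -3.85. The last value rests on 1 count against 22, and run 1, with no Peg3 count in either cluster, stood at 0.13. Meg3 was lower in HE-AGM late (-2.58, on 7 counts against 62) and in HE-YSA late (-3.53, on 10 against 95). H19 stood at -0.57 (HE-AGM) and -0.25 (HE-YSA), and it was past 2-fold lower in HE-YSP (-1.16, with -1.10, -1.65 and -0.68 by run). Igf2 was past 2-fold lower in HE-YSP (-1.65, with -2.68, -1.31 and -0.85 by run), and within 2-fold in HE-AGM (-0.16) and HE-YSA (0.17). Gnas was within 2-fold in all 3 populations (-0.17, -0.49 and -0.21).

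From late HE to progenitors most of the genes with enough counts were lower again, while Dlk1 and Meg3 were higher in c5. In c5 against HE-AGM late 2 of 10 members were higher and 7 lower, beside 9.89% and 15.3% of all genes. In p1 against HE-YSA late 0 of 8 were higher and 8 lower, beside 10.6% and 15.9%, and in p2 against HE-YSP late 0 of 6 were higher and 3 lower, beside 8.17% and 12.1%. Of the 9 members past 2-fold in c5, 3 were so in run 1 alone and 5 in run 3 alone. Of the 8 in p1, 4 were so in run 2 alone and 5 in run 3 alone. Meg3 in c5 stood at a log2 ratio of 1.53 on 23 counts against 7, with the sign turning in run 1 (-0.09, 2.75 and 0.79). Blood markers were higher in the progenitors, at 1162 CPM in c5, 1039 in p1 and 885 in p2 against 900.4, 653 and 403 CPM in the matched late HE clusters, and their part was not tested.

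H19 and Igf2 were lower in all 3 progenitor clusters. The log2 ratio of H19 was -1.68 in c5 (-1.10, -1.65 and -2.15 by run), -1.98 in p1 (-2.50, -2.66 and -1.38) and -2.55 in p2 (-2.17, -2.82 and -3.04). That of Igf2 was -1.05 in c5 (-0.35, -1.14 and -1.63), -2.03 in p1 (-2.12, -1.89 and -1.89) and -2.84 in p2 (-2.23, -2.54 and -3.47). In p2 the highest cell held 423 CPM of H19 and 1571 CPM of Igf2, below the HE-YSP late medians of 541 and 1681 CPM. Cdkn1c stood at -2.18 in c5 and at -4.22 in p1, where 1 of 17 cells had a count. Gnas was past 2-fold lower in p1 (-1.14) and within 2-fold in c5 (-0.46) and p2 (-0.88). Peg3 had 0 counts in p1, and set to a floor of 3 counts there it was 9.45-fold lower. The 95% counting interval of this log2 ratio ended at -2.88.

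The stage is in the library names of the YS cells, so levels could be compared within a cluster between embryonic days, in sets of at least 5 cells. Igf2 was higher at the later day in both HE-YSA clusters. HE-YSA early held 6221 CPM at E9.5 (7 cells, 2201 to 12622 CPM, median 6838) and 14031 CPM at E10.5 (14 cells, 2783 to 32334 CPM, median 11945). HE-YSA late held 2404 CPM at E9.5 (7 cells, 1178 to 5533 CPM, median 1972) and 15088 CPM at E10.5 (21 cells, 4025 to 29547 CPM, median 14215). In HE-YSA late the levels at E9.5 and E10.5 were 1917 and 18264 CPM in run 1, 3396 and 17091 in run 2, and 1856, from a single cell, and 11162 in run 3. The sets overlapped only between 4025 and 5533 CPM. All 7 of these E9.5 cells, and 5 of the 7 in HE-YSA early, carry 1 code in their library names that no E10.5 cell carries, so stage and that code cannot be told apart. The median total of HE-YSA late cells was 27201 counts at E9.5, against 35666 at E10.5.

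H19 was at 2036 and 2059 CPM in HE-YSA early and at 1361 and 1865 CPM in HE-YSA late at E9.5 and E10.5. The H19 count per Igf2 count was 0.327 and 0.147 in HE-YSA early and 0.566 and 0.124 in HE-YSA late. In HE-YSP early Igf2 was at 6289 CPM at E9 (10 cells) and 10274 CPM at E10.5 (13 cells). In HE-YSP late it was at 1671 CPM at E9 (6 cells), 2019 at E9.5 (11 cells) and 4230.3 at E10.5 (7 cells). None of these E9.5 cells shares a code in its library name with the E10.5 cells of HE-YSP late. In HE-YSP early 8 of the 13 E10.5 cells carry 1 code that no E9 cell of the cluster carries. Stage and code were thus largely tied in HE-YSP too. H19 in HE-YSP early was at 1627 CPM at E9 (1476 to 1790) and 1407 CPM at E10.5 (1307 to 1513), with overlapping intervals. The runs did not all go 1 way: in run 2 H19 was at 1632 and 1775 CPM, and in run 3 Igf2 was at 8124 and 5654 CPM. In HE-YSP late H19 was at 186, 619 and 903 CPM over the same days as Igf2, in the same direction. Mest was lower in the late than in the early clusters at each day with both: 44.0 against 411 CPM at E9.5 and 113 against 567 CPM at E10.5 in HE-YSA, and 82.7 against 962 CPM at E9 and 184 against 1287 CPM at E10.5 in HE-YSP.

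**Figure D4:**
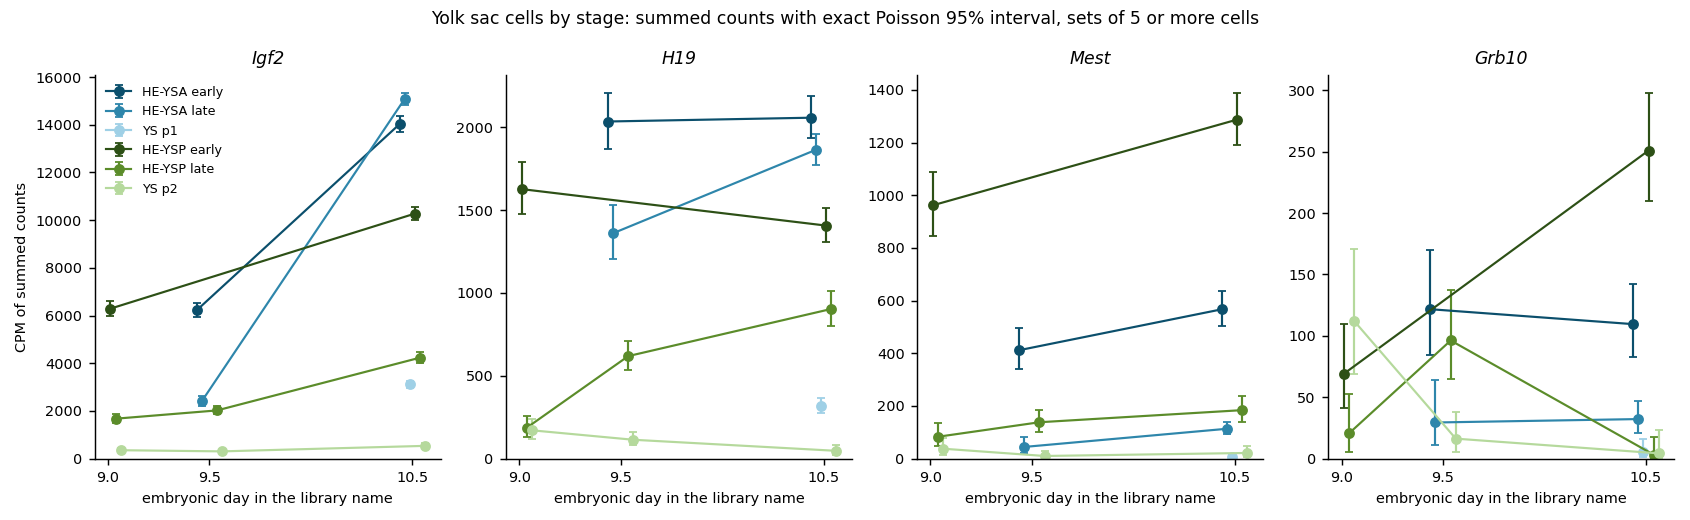
CPM of summed counts in YS cells by the embryonic day in the library name, for sets of 5 or more cells, with exact Poisson 95% intervals of counting error. Igf2 is at 2404 CPM at E9.5 and at 15088 CPM at E10.5 in HE-YSA late, while H19 in that cluster is at 1361 and 1865 CPM.

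The long reads also gave the make-up of each gene in isoforms. The share of Gnas counts on transcripts with exon 3 was lower in AGM cells than in YS cells. Of the Gnas counts on transcripts that could tell, which were 96.2%, 98.1% and 96.6% of all Gnas counts in HE-AGM, HE-YSA and HE-YSP, exon 3 was included in 58.8% for HE-AGM (exact binomial interval 57.4 to 60.1%). The share was 78.8% for HE-YSA (76.4 to 81.0%) and 71.8% for HE-YSP (68.9 to 74.6%). The difference of HE-AGM from HE-YSA was -20.04 percentage points in the sum and -15.7, -23.8 and -22.7 points in the runs. From HE-YSP it was -13.1 points, with -9.34, -11.7 and -18.4 points in the runs. Cluster c5 was at 59.0%, close to HE-AGM early at 59.4% and late at 57.8%. HE-YSA early was at 84.4% and late at 72.5%, a difference that ran the same way in each run (-7.37, -18.5 and -12.0 points). HE-YSP early, HE-YSP late, p1 and p2 were at 73.4%, 69.8%, 75.9% and 74.3%. In cells with at least 10 such counts the median share was 54.6% over 49 HE-AGM cells, with a lowest cell at 40% and a highest at 79.1%. It was 75.1% over 44 HE-YSA cells (lowest 46.1%, highest 99.99%) and 71.8% over 38 HE-YSP cells (lowest 48.9%, highest 99.7%). Tissue and cDNA project cannot be told apart for this share either. In HE-AGM early the 6 cells of other cDNA projects ran from 40% to 59.4%. The 23 cells of the main AGM project there ran from 46.9% to 79.1%. The part of cDNA project in the difference between AGM and YS cells was not tested. Reads shared by similar transcripts were divided by the authors' counting, and 86.7% of Gnas counts lie on transcripts with the same estimate as another one, so single Gnas transcripts are uncertain and shares are given only by exon 3. Transcripts without exon 3 also had to hold the next exon, and those with it did not. The latter include Gnas-211 (1873 counts over all cells) and Gnas-215 (536 counts). These have 759 and 177 coding bases, against 1182 in Gnas-202. The share can thus also move with such shorter forms, which was not tested.

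**Figure D5:**
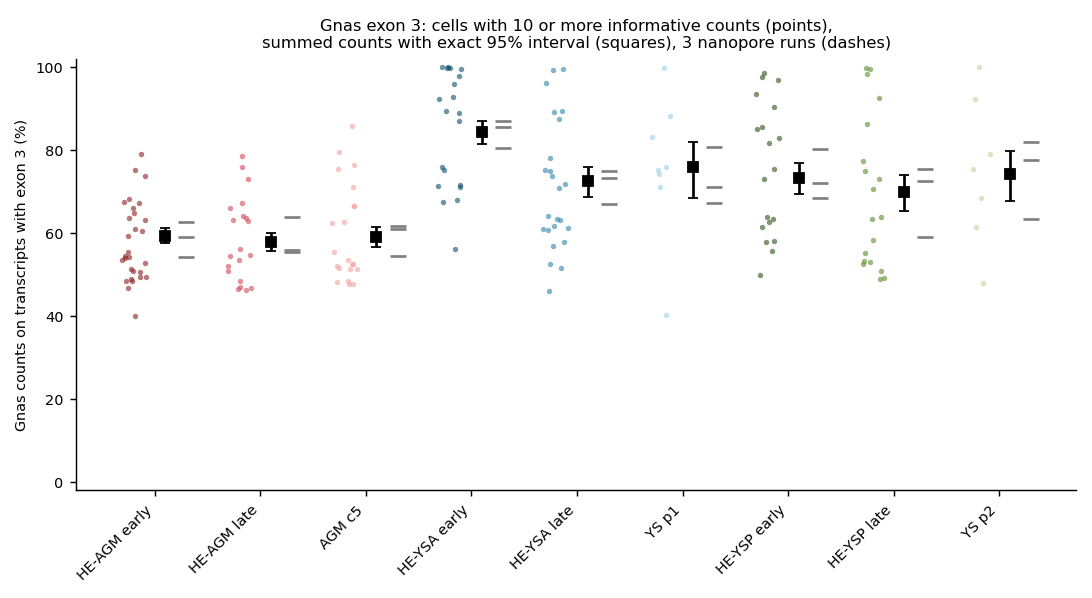
Share of informative Gnas counts on transcripts with exon 3, in percent, for each cluster: cells with 10 or more such counts (points), summed counts with the exact binomial 95% interval (squares) and the 3 nanopore runs (dashes). The 3 AGM clusters lie between 57.8% and 59.4%, below each of the 6 YS clusters, which lie between 69.8% and 84.4%.

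Igf2 counts lay mostly on Igf2-202, a transcript of 650 bases with the whole coding sequence of 540 bases that ends well before the annotated 3′ end. Its share was 84.4% of Igf2 counts for HE-AGM (82.7 to 87.3% over runs), while HE-YSA had 91.6% (89.7 to 92.3%) and HE-YSP had 90.8% (88.8 to 92.0%). Transcripts reaching the annotated 3′ end took 13.8% for HE-AGM (10.6 to 15.7% over runs), against 6.01% for HE-YSA (5.38 to 7.45%) and 6.61% for HE-YSP (5.55 to 7.75%). The share in the median cell was 12.8%, 6.15% and 6.53%. Averaged over cells with equal weight the shares were 15.4%, 10.1% and 10.1%. The predicted gene Gm49394, annotated over Igf2 at chr7:142650769-142669942, had the same estimate as Igf2-204 in every cell, so the reads of the pair cannot be told apart. Its counts equal 3.96% of the Igf2 counts for HE-AGM and 1.57% for HE-YSA. They were not added to Igf2.

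In c5 the Dlk1 counts that could tell (210 of 259) were split among all 3 forms of the last coding exon. The form spliced after base 226, Dlk1-204, took 68.9% (62.3 to 75.2%), with 58.1 to 73.2% over runs. The form spliced after base 286, Dlk1-203, took 20.1% (11.2 to 39.9% over runs), and the unspliced form took 10.95% (1.96 to 15.6% over runs). The coding sequences are 870, 936 and 1155 bases long in Dlk1-204, Dlk1-203 and the unspliced Dlk1-205. No other group had more than the 10.7 such counts of HE-YSA, too few for a share.

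For the remaining genes, Igf2r counts were all on the full-length Igf2r-201. Cdkn1c counts included a retained-intron transcript, Cdkn1c-204, at 28% for HE-AGM (22 to 33.6% over runs), against 13.1% for HE-YSA (6.79 to 20.1%) and 17.7% for HE-YSP (0 to 29.2%). Its 2 main coding forms, Cdkn1c-201 and Cdkn1c-202, took 27.3% and 27.4% in HE-AGM and 28.5% and 33.9% in HE-YSA. In H19, 4 transcripts of 2209 to 2327 bases took 19.8 to 20.9% each of HE-AGM counts, with H19-204 at 20.9% for HE-AGM, 26.5% for HE-YSA and 25.2% for HE-YSP. Mest-202, Mest-210 and Mest-211 took 29.6 to 34.5% each in every HE population, and Grb10-201 and Grb10-203 had equal estimates, so these forms could not be told apart. The short Grb10-209 took 10.8% for HE-AGM, 17.6% for HE-YSA and 29.7% for HE-YSP. Peg3 counts in HE-AGM were 46.8% on Peg3-203, annotated as a nonsense-mediated decay transcript, and 26.4% each on the long coding Peg3-201 and Peg3-205. Of Cdkn1c, H19 and Peg3 counts, 51.1%, 65.2% and 44.2% lie on transcripts with the same estimate as another one. The shares of their single transcripts are thus uncertain.

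Related genes were taken as lists. Each number below is to be read against the share of all genes past 2-fold higher and lower in its comparison, which was 31.8% and 13.3% in HE-AGM against HE-YSA, 34.1% and 14.5% against HE-YSP, and 9.47% and 11.5% in HE-YSP against HE-YSA. In late against early HE it was 9.11% and 17.2% for the AGM, 11.1% and 11.7% for HE-YSA and 13.4% and 12.6% for HE-YSP. In the progenitors it was 9.89% and 15.3% for c5, 10.6% and 15.9% for p1 and 8.17% and 12.1% for p2.

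Of 28 genes of the IGF and insulin axis, 18 had enough counts in HE-AGM against HE-YSA, where 10 were higher and 2 lower beside 31.8% and 13.3% of all genes, with a median log2 ratio of 1.12 beside 0.31 for all genes. Igf1r, the receptor that carries the growth signal of IGF1 and IGF2, was at 29.4 CPM in HE-AGM and 2.62 CPM in HE-YSA (2.09, 4.56 and 5.45 by run on the log2 scale). Insr, the insulin receptor, was at 28.5 CPM in HE-AGM and 2.39 CPM in HE-YSP, and Igfbp2, an IGF binding protein, at 81.7 and 5.38 CPM. Igf2bp2, which binds Igf2 mRNA, was at 129 and 17.3 CPM. Igf1 was at 138 CPM in HE-YSP late and 12.3 CPM in p2, and Pik3r1, a regulatory subunit of PI3-kinase, was lower in HE-AGM at 2.40 CPM against 22 CPM in HE-YSA, with the sign turning in run 2. Against HE-YSP 10 of 17 were higher and 1 lower, beside 34.1% and 14.5%. In HE-YSP against HE-YSA 3 of 13 were higher and 4 lower, and the early and late clusters had 0 of 17, 0 of 10 and 2 of 8 higher and 7, 3 and 1 lower in HE-AGM, HE-YSA and HE-YSP. In c5, p1 and p2 against late HE, 2 of 13, 3 of 10 and 1 of 7 were higher and 1, 2 and 3 lower.

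Of 17 genes known to keep or set imprints, such as the DNA methyltransferases, 15 had enough counts in HE-AGM against HE-YSA, where 6 were higher and 0 lower (median 0.62), beside 31.8% and 13.3% of all genes, so the share higher was near that of all genes. Against HE-YSP 9 of 15 were higher and 0 lower (median 1.13), beside 34.1% and 14.5%. Dnmt1, the maintenance methyltransferase, was at 307 CPM in HE-AGM and 101 CPM in HE-YSA. Dnmt3b, a de novo methyltransferase, was at 119 and 24.1 CPM, and Ctcf, the insulator protein, at 66.1 and 16.3 CPM. Dnmt3a was at 574 CPM in HE-AGM and 188 CPM in HE-YSP. Tet1 was lower in p1 at 6.09 CPM against 27.2 CPM in HE-YSA late, and Arid4b lower in HE-YSP at 7.78 CPM against 26.2 CPM in HE-YSA. From early to late HE, 1, 3 and 2 of these genes were higher and 0, 3 and 0 lower in HE-AGM, HE-YSA and HE-YSP. In HE-YSP against HE-YSA 0 of 15 were higher and 5 lower, and in c5, p1 and p2 against late HE 0 of 15, 1 of 13 and 1 of 8 were higher and 4, 3 and 0 lower.

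Of 10 partners of the Gnas subunit, 8 had enough counts in HE-AGM against HE-YSA, where 5 were higher and 1 lower (median 1.30), beside 31.8% and 13.3% of all genes with a median of 0.31. The numbers were the same against HE-YSP (median 1.201), beside 34.1% and 14.5% with a median of 0.37. Gnb1, a G protein beta subunit, was at 514 CPM in HE-AGM and 153 CPM in HE-YSP, and Gng5, a gamma subunit, at 147 and 23.9 CPM. Prkaca and Prkar1a, subunits of protein kinase A, were at 79.6 and 71.8 CPM in HE-AGM against 28.3 and 24.1 CPM in HE-YSA, in each run higher in HE-AGM. Gng11, another gamma subunit, was at 103.8 CPM in p2 and 488 CPM in HE-YSP late, and the adenylyl cyclase Adcy7 at 2.73 and 24.4 CPM. In HE-YSP against HE-YSA, HE-AGM late against early, HE-YSP late against early and p1 against HE-YSA late none of the tested partners was past 2-fold. HE-YSA late against early had 2 of 8 higher and 1 lower, c5 had 1 of 8 higher and 2 lower, and p2 had 0 of 7 higher and 2 lower.

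Of 7 other CDK inhibitor genes, 4 had enough counts in HE-AGM against HE-YSA, where 1 was higher and 1 lower, beside 31.8% and 13.3% of all genes. Against HE-YSP 2 of 4 were higher and 1 lower, beside 34.1% and 14.5%. Cdkn1b was at 25.5 CPM in HE-AGM and had 2 counts in HE-YSP, with the sign turning in run 2, and Cdkn1a was higher in c5 at 35.8 CPM against 5.75 CPM in HE-AGM late. Cdkn3 was at 12.3 CPM in HE-AGM and 49.0 CPM in HE-YSP. In HE-YSP against HE-YSA 1 of 3 was lower, in HE-YSA late against early 1 of 3 was higher, in c5 1 of 4 was higher and 2 lower, and none of the few genes tested was past 2-fold in HE-AGM late, HE-YSP late, p1 or p2.

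Of 47 other imprinted genes, 44 were in the table and 25 had enough counts in HE-AGM against HE-YSA, where 7 were higher and 3 lower, near the 31.8% and 13.3% of all genes, with a median log2 ratio of 0.12 beside 0.31. Against HE-YSP 9 of 24 were higher and 6 lower, beside 34.1% and 14.5%. From early to late HE 3 of 23, 0 of 15 and 1 of 14 were higher and 8, 5 and 5 lower in HE-AGM, HE-YSA and HE-YSP. In HE-YSP against HE-YSA 1 of 18 was higher and 5 lower, and in c5, p1 and p2 against late HE 3 of 20, 3 of 14 and 2 of 14 were higher and 5, 5 and 2 lower. Plagl1, a zinc finger protein, was at 59.2 CPM in HE-YSA late and 1.52 CPM in p1. The amino acid transporter Slc38a4 was at 56.3 and 3.05 CPM in the same clusters. Nnat was at 23.7 CPM in HE-AGM late and 1.32 CPM in c5, and the organic cation transporter Slc22a3 was higher in p2 at 49.2 CPM against 3.65 CPM in HE-YSP late. Trappc9 was at 31.2 CPM in HE-AGM and 2.62 CPM in HE-YSA, and Osbpl5 at 22.5 CPM in HE-AGM with 0 counts in HE-YSP.

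The genes whose levels ran most like those of a member were named from Pearson's r of log2(CPM + 1) over the 27 sums of cluster and run, among 6075 genes. For H19 these were Gm49394 (r = 0.94), which lies over Igf2, Tead2 (0.92) and a gene named only by its identifier. For Igf2, after Gm49394, they were H19 itself (0.92) and Calcrl (0.91). For Cdkn1c they were Serpinf1 (0.92), Nisch (0.90) and Fn1 (0.90), for Igf2r Nos3 (0.91), Pik3c2b (0.88) and Plekho1 (0.85), and for Gnas Nisch (0.92), P4hb (0.89) and Fabp5 (0.88). For Mest they were Tek (0.89), Maged2 (0.86) and Anxa5 (0.85). Peg3 was most like Ctsh, Sncg and Fbn1 (0.85 to 0.86), and Grb10 most like Adam15, Jarid2 and Abhd17a (0.84 to 0.86). No gene exceeded 0.63 with Dlk1 or 0.66 with Meg3. The sums share libraries and depth between genes, and the clusters repeat over the 3 runs.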

How the data were processed

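Per the study's methods, the authors called bases with Dorado, cut adapters with bbduk, dropped chimeras with YACRD and porechop, mapped to GENCODE transcripts with Minimap2 (no more than 10 alignments for a read) and estimated abundance with NanoCount. The deposited table of estimated counts per transcript is not normalized, and its values need not be whole. A deposited TPM table, used only as an alternative, holds those values rescaled by the authors to 1 common sum for all cells with no correction for length.

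The labels' cluster names set the groups. Totals per cell after filtering were 18131 to 125339 counts, with the library-size limit 1 scaled median absolute deviation below the median. Transcripts were summed by gene symbol and cluster, 0.5 counts were added to each sum before a ratio, and a group without counts was bounded by a floor of 3 counts. Estimates were rounded for thinning and size factors. No 2 cells had identical counts. No test was run, since each group is 1 sample. Intervals are exact 95% intervals of counting error. A cell has a count where its estimate is at least 1. The members, lists and comparisons were chosen with earlier results of these data known. All 10 members are named, and list genes were named by rule, with at least 20 CPM in 1 group and a 2-fold ratio, at most 6 per list by size of ratio. Ratios and intervals were tested on simulated data. Alternatives were other limits, added counts, DESeq2 size factors, TPM, single runs and stages. Python 3.11.15, numpy 2.4.6, pandas 2.3.3, scipy 1.17.1, R 4.3.3 and DESeq2 1.42.0 were used.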

Additional observations from a re-analysis of the deposited data

Results flagged for a closer look

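The difference of Igf2 between early and late HE ran in opposite directions in the YS populations. Its log2 ratio of late to early was 0.17 in HE-YSA and -1.65 in HE-YSP, a difference of 1.82. It was above 0 in each run in HE-YSA (0.26, 0.04 and 0.09) and below 0 in each run in HE-YSP (-2.68, -1.31 and -0.85). This difference was not tested. The 2 populations also differ in stage: at E9.5 alone HE-YSA late was below HE-YSA early (2404 against 6221 CPM), and at E10.5 the levels were 15088 and 14031 CPM in HE-YSA and 4230.3 and 10274 CPM in HE-YSP.

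The 13 cells left out for their library size still held 6 members above 30.5 CPM, the floor of 3 counts over their summed total. Their levels were 682 CPM for H19, 2538 for Igf2, 61.1 for Meg3, 112 for Peg3, 224 for Mest and 519 for Gnas.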

How the results depend on the processing

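Of 53 called log2 ratios, 50 kept their direction under every alternative run in which a group held more than 3 counts, and 35 also stayed past 2-fold. Meg3 in HE-AGM against HE-YSA turned to 0.23 with a limit of 30000 counts, 5.05 in run 3 alone and 0.037 with YS cells of E10.5 only. In c5 against HE-AGM late, Peg3 turned to 0.99 and Mest to 0.42 in run 1 alone. The number of members past 2-fold moved by over 1.5 times in single runs: 3 instead of 5 in HE-YSP against HE-YSA (run 1), 2 instead of 4 in HE-YSA late against early (run 3), 3 instead of 7 in HE-YSP late against early (run 3), 3 and 5 instead of 9 in c5 against HE-AGM late (runs 1 and 3), and 4 and 5 instead of 8 in p1 against HE-YSA late (runs 2 and 3). With YS cells of E10.5 only it was 4 instead of 7 in HE-YSP late against early. The cause was not tested; single runs and stages hold fewer cells. Without a library-size limit, without the highest cell of each gene and without cells of another cDNA project or AGM library name, all 53 calls were kept. DESeq2 size factors and the mean over cells of TPM kept 51 each, 3 counts added kept 52 and a limit of 30000 counts kept 49. Of calls with enough counts left, 36 of 40 were kept with YS cells of E10.5 only, and 43 of 51, 47 of 51 and 39 of 48 in runs 1, 2 and 3 alone. With at least 200 counts instead of 20, the share of all genes past 2-fold was 3.67 to 37.2% instead of 20.3 to 48.6%. No paired analysis was possible because the groups hold single cells whose numbers only name them and no test was run. Sums below about 20 counts, as for Dlk1 in HE, Meg3 in HE-YSP and most members in p1 and p2, limit what the depth can show.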
